A study of Homo sapiens with 12 samples.

Results

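MIR146A and MIR146B are the human genes of miR-146a and miR-146b, microRNAs with the same seed that are described as induced by NF-kB. They were found by gene name and are 2 of the 1881 miRNA precursor genes counted in each library. The pair was chosen from measured values of these same libraries, since the level of MIR146A in the lines and the difference between the lines in its response to drug were already known. Its response within each line is a part of that difference. All values of MIR146A, and its ratio to MIR146B, are therefore given as a description with standard errors and no test. The paper lists miR-146b among the miRNAs that differ between these lines, so the line differences of MIR146B are a description too. The drug responses of MIR146B, and the difference between them, are tested.

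Small RNA was sequenced from A375, a human melanoma line with mutant BRAF that is sensitive to the BRAF inhibitor dabrafenib, and from A375-BIR, a resistant line obtained from A375 by continued culture in the drug. Each line was kept for 48 h in 200 nM dabrafenib or in its vehicle, 0.1% DMSO, and n = 3 libraries represent each of the 4 groups, which makes 12 libraries. A375-BIR is a single resistant derivative of a single line, so a difference between the lines cannot be told apart from a difference between these particular cultures. The labels call the replicates biological without naming separate cultures, and p-values measure the spread between these samples.

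The expected counts summed to 77264 to 121802 per library in A375 in DMSO and 36955 to 51532 in A375 in dabrafenib. They summed to 106427 to 122792 in A375-BIR in DMSO and 35069.5 to 59899 in A375-BIR in dabrafenib. Each value belongs to a precursor gene, so the 5p and 3p arms are not told apart. Intervals and detection limits given below cover counting error only.

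In myeloid cells miR-146a is switched on by NF-kB after Toll-like receptor or cytokine signalling. It represses IRAK1 and TRAF6, adaptors that carry the signal from these receptors to NF-kB, and so forms a negative feedback loop. miR-146b comes from another chromosome, has the same seed and shares many predicted targets, and in melanoma miR-146a is known for repressing NUMB, an inhibitor of Notch signalling.

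The mature sequences below, from RefSeq on GRCh38.p14, show how alike the products of the pair are, with the seed (bases 2 to 8) in capitals. All 4 mature names of the pair were matched.
miR-146a-5p: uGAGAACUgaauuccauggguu
miR-146b-5p: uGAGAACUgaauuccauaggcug
miR-7153-5p: uGAGAACUgacaaaugugguagg
miR-146a-3p: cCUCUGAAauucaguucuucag
miR-146b-3p: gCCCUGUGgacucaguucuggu
The 5p arms of the pair share their first 17 bases and are equal at 20 of 22 positions. Counted from the 5′ end, the substitutions from miR-146a-5p to miR-146b-5p are G18A and U21C, and both lie outside the seed. The 3p arms are equal at 6 of 22 positions and have different seeds. Of 2370 mature names, 3 have the 5p seed, the other being miR-7153-5p.

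On hg38, with GENCODE v44, MIR146A (ENSG00000283733) lies at chr5:160485352-160485450 on the plus strand. It is inside an exon, from 160485299 to 160487426, of both annotated transcripts of the lncRNA gene MIR3142HG. MIR146B (ENSG00000202569) lies at chr10:102436512-102436584 on the plus strand, between genes, 3927 bases after CUEDC2 and 13231 bases before C10orf95-AS1. The pair thus has neither a host transcript nor a chromosome in common.

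The promoter window of MIR3142HG in RefSeq, which reaches from before the annotated start to just after it, was searched on both strands for the NF-kB consensus because the pair is named for this factor. It holds 1 match, shown in capitals within chr5:160468121-160468150 of GRCh38.p14 on the plus strand.
MIR3142HG promoter: ggatctagaaGGGACTTTCCagagagggtt
The match ends 111 bases before the RefSeq start of MIR3142HG, and MIR146A begins 17101 bases after that start. GENCODE v44 starts the 2 transcripts at 160438594 and 160468268, and the region before the first of these was not searched. Of the pair, only the host gene of MIR146A was examined in this way, and MIR146B was not. The consensus was found in 5.91% of 35116 promoter windows of the same length, and the letters GGGACTTTCC in 0.191%. The match describes these letters, and neither binding nor activity of NF-kB was measured in these libraries.

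MIR146A was abundant in A375 and low in A375-BIR. In CPM, counts relative to the TMM-corrected library total, it stood at 24521, 22017 and 25713 in A375 in DMSO and at 11709, 15802 and 16603 in A375 in dabrafenib. In A375-BIR it stood at 898, 1011 and 1412 CPM in DMSO and at 1544, 1387 and 1985 CPM in dabrafenib. Every A375 library was above every A375-BIR library, the A375 libraries in DMSO were above those in dabrafenib, and the treatments overlapped in A375-BIR. These values rest on expected counts of 2066.5 to 2925 (DMSO) and 453 to 565 (dabrafenib) in A375. In A375-BIR the expected counts were 100.0 to 206 (DMSO) and 57 to 99 (dabrafenib).

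MIR146B had the opposite order of lines. It stood at 569.7, 339 and 521 CPM in A375 in DMSO and at 724, 1007 and 527 CPM in A375 in dabrafenib. In A375-BIR it reached 2532, 1570.4 and 2468 CPM in DMSO and 4279.6, 3176 and 2847 CPM in dabrafenib. Every A375-BIR library was above every A375 library, the A375-BIR libraries in dabrafenib were above those in DMSO, and the treatments overlapped in A375. The response in A375-BIR did not pass the test given below. How many other precursors separate the groups as MIR146A or MIR146B do was not counted, here and below. The expected counts of MIR146B were lowest in A375 in dabrafenib, at 15.5 to 35.5, and highest in A375-BIR in DMSO, at 202.5 to 360.5. In bulk RNA such as this, fewer cells that make a miRNA and less of it per cell cannot be told apart.

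**Figure D1:**
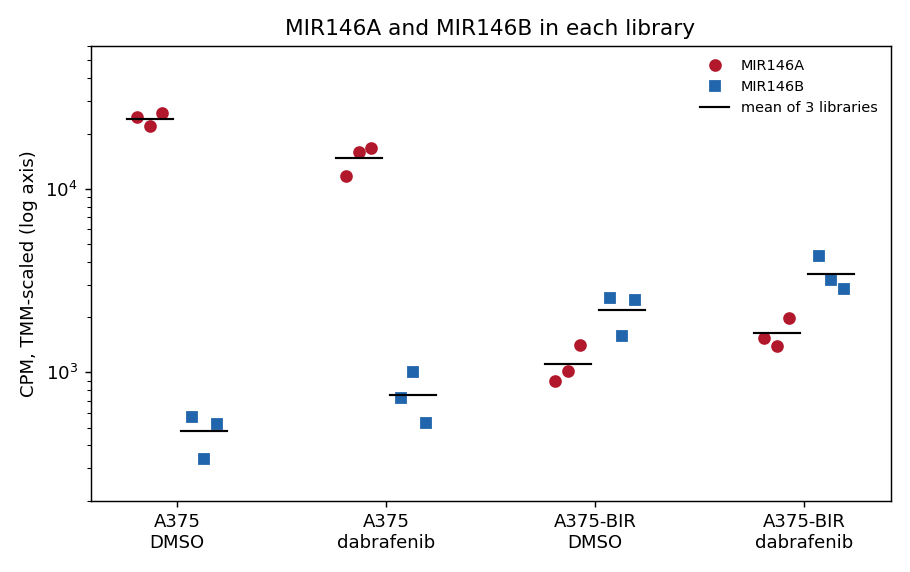
CPM of MIR146A (circles) and MIR146B (squares) in each of the 12 libraries on a log axis, by line and treatment, with bars at the mean of 3 libraries. The circles lie far above the squares in A375, and the squares lie above the circles in A375-BIR.

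Between the lines, the members of the pair moved in opposite directions. In DMSO, MIR146A averaged 24080 ± 1886 CPM (SD, n = 3) in A375, while A375-BIR had 1107 ± 270.3 CPM. The fitted log2 fold change of A375 over A375-BIR was 4.44 (SE 0.22), a 21.7-fold difference, and it ranked 4 from the top among the 175 precursors tested. MIR146B averaged 476.5 ± 121.8 CPM in A375 against 2190 ± 537.8 CPM in A375-BIR, a log2 fold change of -2.21 (SE 0.28), or 4.64-fold higher in A375-BIR. In this comparison 46.3% of the tested precursors passed the threshold of FDR 0.05 by edgeR's quasi-likelihood test, so that passing it was common. MIR146B ranked 11 from the bottom by log2 fold change.

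In dabrafenib the same order held. MIR146A averaged 14700 ± 2625 CPM in A375 against 1639 ± 310.2 CPM in A375-BIR, a log2 fold change of 3.17 (SE 0.22), or 8.98-fold. MIR146B averaged 752.6 ± 241.2 CPM in A375 against 3434 ± 750.3 CPM in A375-BIR, a log2 fold change of -2.17 (SE 0.30), where again 46.3% of tested precursors passed. Averaged over the treatments, the log2 fold change was 3.80 (SE 0.16) for MIR146A and -2.19 (SE 0.20) for MIR146B, beside 60.0% of tested precursors past the threshold. With total counts in place of TMM, the difference of MIR146A in dabrafenib was 2.70, a change in scale described with the drug response.

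**Figure D2:**
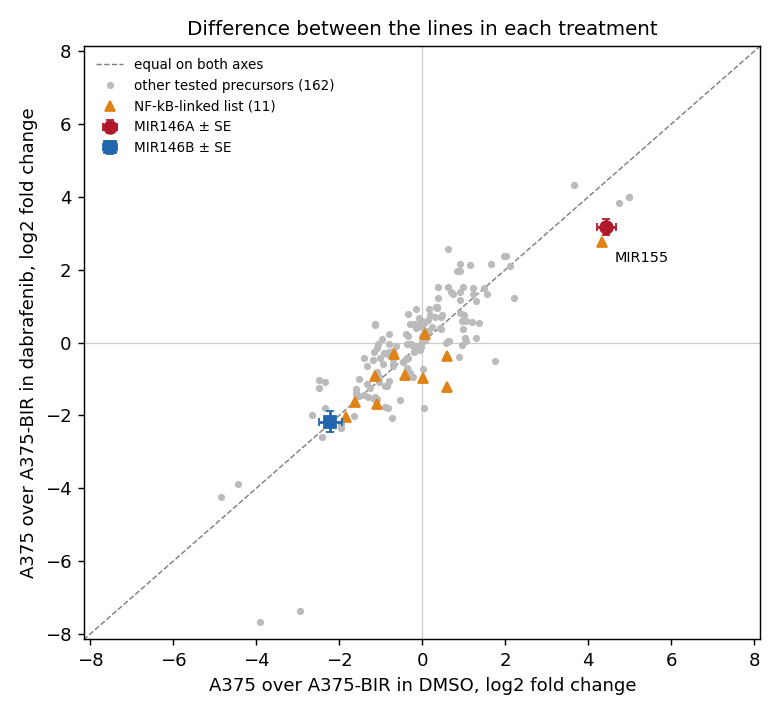
Log2 fold change of A375 over A375-BIR in DMSO (horizontal axis) and in dabrafenib (vertical axis) for the 175 tested precursors, with MIR146A and MIR146B drawn with SE bars and the 11 tested genes of the NF-kB-linked list as triangles. MIR146A lies at 4.44 and 3.17 beside MIR155, and MIR146B lies at -2.21 and -2.17 in the opposite quadrant.

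Because both 5p arms carry the same seed, the makeup of the pair was followed within each library, where no scaling between libraries enters. MIR146A held 97.7%, 98.5% and 98.0% of the counts of the pair in A375 in DMSO, and 94.2%, 94.1% and 97.0% in A375 in dabrafenib. In A375-BIR it held 26.1%, 39.1% and 36.4% in DMSO and 26.5%, 30.4% and 41.1% in dabrafenib. The counts of the pair were thus almost wholly those of MIR146A in A375 and mostly those of MIR146B in A375-BIR. Whether sequencing recovers both miRNAs equally was not tested, so these are shares of counts and not of molecules. The 95% Wilson intervals ran from 91.7% to 98.9% over the A375 libraries and from 21.1% to 47.4% over the A375-BIR libraries, with no overlap between the lines.

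Per nucleotide of the mature 5p sequence (22 nt for miR-146a-5p and 23 nt for miR-146b-5p), the level of MIR146A was 54.5 ± 12.1 times (SD, n = 3) that of MIR146B in A375 in DMSO and 22.5 ± 9.94 times in A375 in dabrafenib. On the same scale the level of MIR146B was 1.96 ± 0.653 times that of MIR146A in A375-BIR in DMSO and 2.07 ± 0.648 times in dabrafenib. This scale takes every read as a 5p read, which was not measured. Whether counts grow with the length of a miRNA was not tested, so this scale is no better measure of abundance than plain counts. The plain ratios of counts, MIR146A to MIR146B, were 52.15 ± 11.55 in A375 in DMSO and 21.54 ± 9.51 in dabrafenib. Those of MIR146B to MIR146A were 2.044 ± 0.6829 in A375-BIR in DMSO and 2.165 ± 0.6777 in dabrafenib. The log2 ratio of MIR146A to MIR146B counts differed between the lines by 6.65 (SE 0.32) in DMSO and by 5.37 (SE 0.43) in dabrafenib, given as descriptions. Summed over the pair, the level in A375 was 24560 ± 1993 CPM (DMSO) and 15460 ± 2624 CPM (dabrafenib), and that in A375-BIR was 3297 ± 659.7 CPM (DMSO) and 5073 ± 663.9 CPM (dabrafenib). The sum was thus 7.45-fold higher in A375 in DMSO and 3.05-fold higher in dabrafenib, less than for MIR146A alone.

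**Figure D3:**
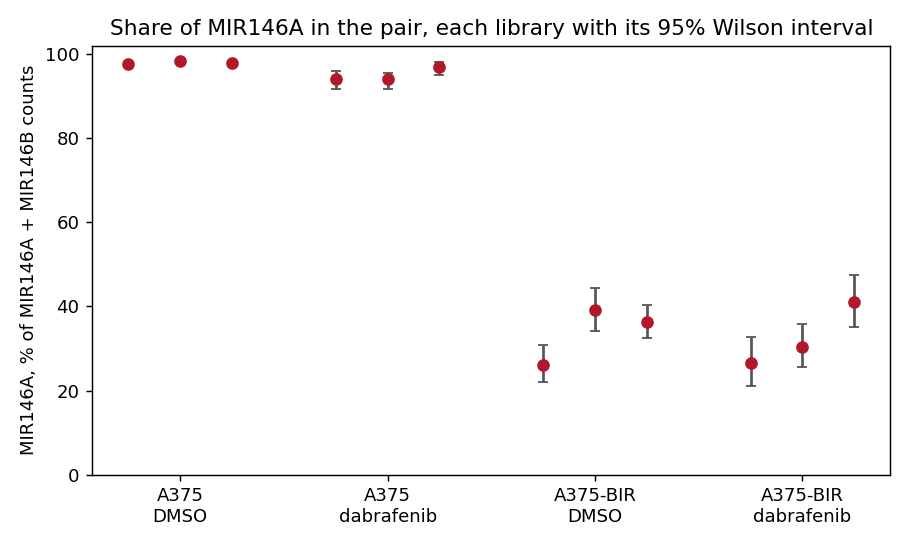
Share of MIR146A in the summed expected counts of MIR146A and MIR146B (vertical axis, percent) in each library, by line and treatment, with 95% Wilson intervals for counting error. The A375 libraries lie between 94.1% and 98.5%, and the A375-BIR libraries between 26.1% and 41.1%.

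The expected counts come from an assignment in which a read that fits several precursors is divided among them. MIR146A was whole in 11 libraries and ended in 0.5 in 1, while MIR146B was whole in 5 and ended in 0.5 in 7. Both ended in 0.5 in 1 library only, the first replicate of A375 in DMSO. Reads cut short of position 18 would fit both 5p arms, so the low counts of MIR146B in A375, beside far more MIR146A, are uncertain in this respect, and how many reads were shared was not tested.

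With dabrafenib, MIR146A was lower in A375. Its mean fell from 24080 to 14700 CPM, every treated library lay below every vehicle library, and the log2 fold change was -0.71 (SE 0.19), which ranked 17 from the lowest among the tested precursors. It lay between -0.808 and -0.575 when any 1 library was left out. The size depended on scaling and filter: it was -1.21 with total counts alone, -1.12 with a filter on CPM (1 or more, 3 libraries or more) and -1.11 with no filter.

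MIR146B did not pass the test in A375, where its log2 fold change with dabrafenib was 0.68 (SE 0.31, FDR = 0.137 by edgeR's quasi-likelihood test), beside 25.1% of tested precursors past the threshold, 32 higher and 12 lower (18 and 44 with total counts alone, 23 and 23 with DESeq2's size factors). That value too depended on scaling and filter, at 0.168 with total counts alone, 0.265 with the filter on CPM, 0.286 with no filter and 0.47 with DESeq2's size factors, and it lay between 0.421 and 0.871 with a library left out. It passed under none of these. Its group means were 476.5 CPM in DMSO and 752.6 CPM in dabrafenib, and the groups overlapped. Within the libraries of A375, the log2 ratio of MIR146A to MIR146B was 5.40, 6.01 and 5.60 in DMSO and 3.99, 3.97 and 4.98 in dabrafenib. The ratio was thus lower in every treated library, by a mean difference of -1.35 (SE 0.38), given as a description.

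In A375-BIR with dabrafenib the log2 fold change of MIR146A was 0.56 (SE 0.21), between 0.393 and 0.757 with a library left out, 0.344 with the filter on CPM and 0.311 with no filter. MIR146B did not pass the test, at 0.64 (SE 0.26, FDR = 0.0928 by edgeR's quasi-likelihood test), beside 20.6% of tested precursors past the threshold. It passed without the third replicate of A375-BIR in DMSO (0.69, FDR = 0.0493 from edgeR's test), a library that stood apart from its group, and without the MIR663 and MIR3648 rows (0.675, FDR = 0.0441), and under no other alternative. It was smaller with the filter on CPM (0.398, FDR = 0.283 from edgeR's test) and with no filter (0.383, FDR = 0.546). The log2 ratio of MIR146A to MIR146B was -1.49, -0.64 and -0.81 in DMSO and -1.46, -1.19 and -0.52 in dabrafenib. It overlapped between the treatments, with a mean difference of -0.08 (SE 0.38).

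**Figure D4:**
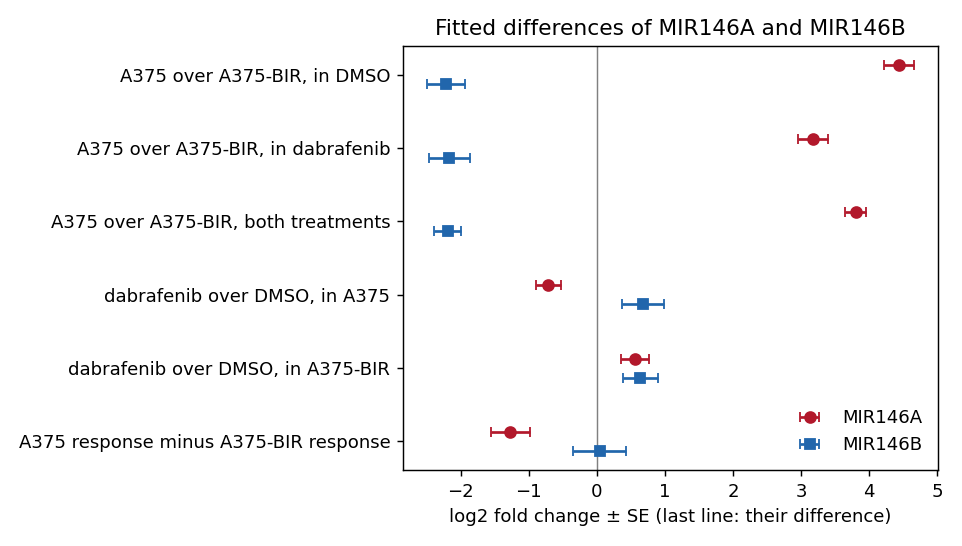
Fitted log2 fold changes with SE bars of MIR146A (circles) and MIR146B (squares) in 6 comparisons, the last being the response to dabrafenib in A375 minus that in A375-BIR. MIR146A lies at -0.71 with dabrafenib in A375 and at 0.56 in A375-BIR, while MIR146B lies at 0.68 and 0.64.

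The fitted response of MIR146A thus had opposite signs in the lines, and A375 minus A375-BIR was -1.27 (SE 0.29) on the log2 scale, given as a description. For MIR146B the same difference was 0.04 (SE 0.39, FDR = 0.998 by edgeR's quasi-likelihood test), with 3.43% of tested precursors past the threshold. The scale between libraries bears on the drug comparisons. The TMM factors were 0.694 to 0.822 in A375 in dabrafenib and 1.05 to 1.19 in the other libraries, and total counts alone moved the median log2 fold change of all tested precursors by -0.50 for dabrafenib in A375 and by -0.04 in A375-BIR.

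The libraries also differed by treatment in rows that resemble ribosomal RNA. Of 1879 precursor sequences, 17 contain a stretch of at least 18 bases that also occurs in the 45S pre-rRNA of chromosome 21, among them MIR663A, MIR663B and both MIR3648 copies. They held 3.49%, 3.22% and 5.59% of the library in A375 in DMSO and 21.2%, 26.3% and 20.9% in A375 in dabrafenib. In A375-BIR they held 2.65%, 2.67% and 4.57% in DMSO and 16.9%, 14.4% and 16.7% in dabrafenib. Most of this lay in an unnamed precursor of 49 bases on chromosome X, with a common stretch of 26 bases, which reached 20.1% of a library. The MIR663 and MIR3648 rows alone rose from between 0.156% and 0.206% to between 1.77% and 2.13% in A375, and from between 0.186% and 0.247% to between 0.918% and 0.98% in A375-BIR. The part of RNA quality in the drug responses was not tested. Fitted without all 17 rows, an alternative chosen after seeing the data, the response of MIR146A was -0.863 in A375 and 0.568 in A375-BIR, and that of MIR146B was 0.532 (FDR = 0.27 by edgeR's quasi-likelihood test) and 0.62 (FDR = 0.137).

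**Figure D5:**
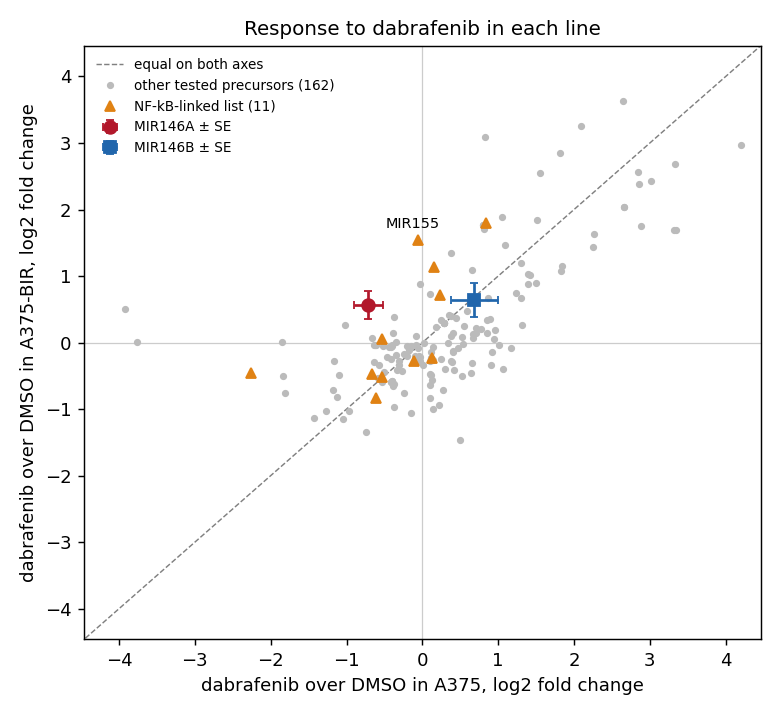
Log2 fold change of dabrafenib over DMSO in A375 (horizontal axis) and in A375-BIR (vertical axis) for the 175 tested precursors, with SE bars for MIR146A and MIR146B and triangles for the 11 tested genes of the NF-kB-linked list. MIR146B lies close to the line of equal response, and MIR146A lies above it at -0.71 and 0.56.

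Other miRNA genes described as transcribed under NF-kB in some cell type were read beside the pair. Of a list of 21, kept apart from MIR146A and MIR146B, 11 had enough counts to be tested. In DMSO, 1 was higher and 5 were lower in A375 than in A375-BIR, which is 54.5% of those tested beside 46.3% of all tested precursors, and the medians of the log2 fold change were -0.42 for the list and -0.16 for all. In dabrafenib and over both treatments, 1 was higher and 6 were lower (63.6% each), with medians of -0.92 and -0.50 beside -0.03 and -0.11 for all tested precursors.

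The gene higher in A375 was MIR155, the precursor of an inflammatory miRNA that is induced with miR-146a in activated immune cells. It averaged 1757 ± 98.6 CPM (SD, n = 3) in A375 against 83.85 ± 39.77 CPM in A375-BIR with DMSO. Its log2 fold change was 4.34 (SE 0.41) in DMSO and 2.75 (SE 0.41) in dabrafenib. In A375-BIR in DMSO it stood at only 44.9 to 124.4 CPM, so its high level in A375 helped it past the filter on counts. The paper also lists it, and the genes named next, as differing between these lines. Their line differences are therefore a description. Lower in A375, as MIR146B was, were MIR222 and MIR221, a cluster that represses the cell cycle inhibitor p27. Their log2 fold changes in DMSO were -1.84 and -1.14. MIR34A, a target of p53, was lower in DMSO, at -1.61 (SE 0.31), and in dabrafenib, at -1.63. MIR125B1, a regulator of differentiation, was lower in dabrafenib, at -1.68 (SE 0.24), and in DMSO, at -1.09. Over both treatments the log2 fold changes were 3.55 for MIR155, -1.94 for MIR222, -1.62 for MIR34A and -1.39 for MIR125B1. The directions of these differences held under every alternative tried, left-out libraries included, but none is given for MIR125B1 in DMSO.

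MIR21, a miRNA gene widely raised in tumours, did not pass the test between the lines in DMSO, with a log2 fold change of 0.07 (SE 0.17, FDR = 0.796 by edgeR's quasi-likelihood test) and means of 15630 ± 2800 CPM in A375 against 14930 ± 2386 CPM in A375-BIR. In dabrafenib its log2 fold change between the lines was 0.24 (SE 0.17, FDR = 0.281). Its response to the drug was -0.11 in A375 (FDR = 0.659) and -0.28 in A375-BIR (FDR = 0.254).

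With dabrafenib in A375, 3 of the 11 tested genes of the list passed, or 27.3%, all of them lower, beside 25.1% of all tested precursors, with medians of -0.11 and 0.14. Those lower were MIR365B at -2.27 (SE 0.57, FDR = 0.00848 by edgeR's quasi-likelihood test), MIR222 at -0.67 (SE 0.15, FDR = 0.00379) and MIR221 at -0.61 (SE 0.19, FDR = 0.0283). The size of MIR365B rested on few reads, with 0 to 103.4 CPM in dabrafenib against 213.6 to 255.9 CPM in DMSO, and was -3.83 without the first treated replicate and -1.69 without the second (FDR = 0.00248 and 0.0291 from edgeR's test). In A375-BIR it stood at 125.7 to 171.0 CPM in DMSO and 89.46 to 135.4 CPM in dabrafenib. Its high level in A375 in DMSO thus helped it past the filter on counts. With no filter it was -2.65 (FDR = 0.000666 from edgeR's test). The call of MIR221 was lost in 6 of 21 alternatives, at up to FDR = 0.134 from edgeR's test and a log2 fold change of -0.48 without the third replicate of A375 in dabrafenib. Both genes were lower still with total counts alone (-1.11 for MIR221 and -1.16 for MIR222), with the filter on CPM (-1.03 and -1.08) and with no filter (-1.01 and -1.06). MIR155 stood at -0.05 (SE 0.33, FDR = 0.893 from edgeR's test), with means of 1757 CPM in DMSO and 1690 ± 243.5 CPM in dabrafenib.

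With dabrafenib in A375-BIR, 3 list genes were higher and 2 lower, or 45.5% beside 20.6% of all tested precursors. The medians were -0.23 and -0.04, and DESeq2's Wald test called 4 of the list. The 2 lower genes, MIR221 and MIR222, belong to the same cluster, so their calls are not independent. MIR222 stood at -0.47 (SE 0.14, FDR = 0.0315 by edgeR's quasi-likelihood test), and no alternative is given for it. MIR143, a miRNA gene of smooth muscle and other mesenchymal cells, rose by 1.80 on the log2 scale (SE 0.41, FDR = 0.0066 by edgeR's quasi-likelihood test), and MIR221 was lower at -0.84 (SE 0.19, FDR = 0.0066). The call of MIR221 was lost in 3 of 21 alternatives, at -0.75 with only the libraries compared (FDR = 0.0801 from edgeR's test), -0.63 without the first DMSO replicate of A375-BIR (FDR = 0.0881) and -0.78 without its second dabrafenib replicate (FDR = 0.088). MIR155 rose by 1.54 (SE 0.49, FDR = 0.0394) and MIR27B by 0.71 (SE 0.22, FDR = 0.0352), and each call was lost in 9 of 21 alternatives. The log2 fold change of MIR155 was lowest without the second replicate of A375-BIR in dabrafenib, at 1.24 (FDR = 0.216 from edgeR's test), and that of MIR27B without the third, at 0.46 (FDR = 0.162). Other calls were lost at no smaller size. With only the libraries compared, MIR155 was 1.61 (FDR = 0.185 from edgeR's test) and MIR27B 0.807 (FDR = 0.087). The highest FDR of MIR27B was 0.299, at 0.466 with no filter. In A375-BIR, MIR155 ranged from 44.9 to 124 CPM in DMSO and from 27.1 to 343 CPM in dabrafenib. For the difference in response 0 of the 11 passed, beside 3.43% of all (3 at an unadjusted p under 0.05 in edgeR, and 1, MIR155, by DESeq2's Wald test), and MIR155 stood at -1.59 (SE 0.59, FDR = 0.19 from edgeR's test).

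MIR3142, the other precursor inside MIR3142HG, lies at chr5:160474402-160474483 in an intron and had 0 counts in every library. At 3 counts per library, that allows between 24.4 CPM (deepest library) and 85.5 CPM (shallowest library) by total counts, so the host transcript could not be followed through it. MIR7153, whose product has the seed of the pair, also had 0 counts in every library.

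Markers of the cell types were read as summed expected counts because miR-146a is also abundant in blood cells. Of 7 blood genes, 4 had a count, the sum was between 1 and 17.5 per library, the most abundant was MIR150, and MIR451A, MIR486-1 and MIR486-2 were at 0 throughout. Endothelial MIR126 gave 0 to 9 counts per library, 7 epithelial genes summed to 1 to 13 (mostly MIR205, with MIR203A and MIR429 at 0), 5 muscle genes to 0 to 6 (MIR1-2 the most abundant), and the liver gene MIR122 had 0. The epithelial sum was a larger share with dabrafenib in A375, at 0.0147%, 0.0155% and 0.0135% against 0.00518%, 0.00985% and 0.00575% in DMSO. In DMSO, MIR126 was at most 0.00259% in A375 and between 0.00332% and 0.00733% in A375-BIR. The blood sum was a larger share of the library with dabrafenib in A375-BIR, at 0.02%, 0.0292% and 0.021% against 0.00282%, 0.00332% and 0.00326% in DMSO, from 7 to 17.5 counts against 3 to 4. In A375 the treatments overlapped, with 0.00647%, 0.0107% and 0.00518% in DMSO and 0.0021%, 0.0194% and 0.0189% in dabrafenib. Between the lines the blood share was thus higher in A375 in DMSO and lower in A375 in dabrafenib, without overlap. MIR150 itself had 1 to 3 counts in A375-BIR in DMSO and 2 to 11 in dabrafenib. It passed the filter on counts through dabrafenib libraries, where it was high. Its log2 fold change with dabrafenib in A375-BIR, 2.85 (SE 0.83), is therefore a description. The part of RNA from blood or other cell types in these comparisons, MIR155, MIR143 and the pair included, was not tested.

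The summed melanocyte and melanoma genes moved with the lines in the direction of MIR146A, mostly through MIR204 and the MIR509 copies. Of 11 such genes, 8 had a count, MIR204 was the most abundant, and MIR514A1, MIR514A2 and MIR514A3 were at 0. Their sum was 0.336%, 0.32% and 0.319% of the library in A375 in DMSO and 0.636%, 0.741% and 0.544% in A375 in dabrafenib. In A375-BIR it was 0.0225%, 0.0199% and 0.0228% in DMSO and 0.057%, 0.0351% and 0.0735% in dabrafenib, below every A375 library. With dabrafenib the sum was a larger share of the library in both lines, unlike MIR146A in A375. MIR211, which lies within the melanocyte gene TRPM1, had 0 to 9 counts per library and did not separate the lines in DMSO (0 to 4 counts in A375, 1 to 4 in A375-BIR), and MIR513A1 and MIR513A2 had at most 0.5. The part of lineage in the difference of MIR146A was not tested.

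The precursors whose log2 CPM followed each gene most closely over the 12 libraries were listed as a description, in which the points share line and treatment. For MIR146A they were MIRLET7F1 (Pearson r = 0.954), MIR509-3 (0.938), MIR148A (0.932), MIR155 (0.928) and MIRLET7D (0.913). All had a positive log2 fold change of A375 over A375-BIR in DMSO, from 0.92 for both let-7 precursors to 4.75 for MIR509-3. With dabrafenib in A375 they lay between -0.15 for MIRLET7F1 and 0.81 for MIR509-3, above the -0.71 of MIR146A. In A375-BIR they lay between -0.14 for MIRLET7D and 1.71 for MIR509-3, on both sides of the 0.56 of MIR146A.

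For MIR146B the closest were MIR1269A (Pearson r = 0.94), MIR30C2 (0.911), MIRLET7C (0.901), MIR100 (0.895) and MIR30A (0.891). Their log2 fold changes of A375 over A375-BIR in DMSO lay between -4.44 for MIR1269A and -1.32 for MIR100. With dabrafenib they lay between -0.08 for MIR100 and 1.17 for MIRLET7C in A375, and between -0.28 for MIR30A and 0.09 for MIR100 in A375-BIR, below the 0.64 of MIR146B.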

How the data were processed

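The authors deposited RSEM 1.2.25 expected counts per miRNA gene on hg38, without normalization. Of 1881 rows, 1879 matched a GENCODE v44 miRNA gene and 1854 were named. The expected counts were rounded and fitted with edgeR 4.0.16 (R 4.3.3), using filterByExpr by group (175 kept), TMM, one mean per line and treatment, and the quasi-likelihood test, with FDR by Benjamini-Hochberg at 0.05. The log2 ratio of the pair was taken after adding 0.5 to each count, without a test. The design set tests of the drug responses of MIR146A and of this ratio, but both belong to the difference known when the pair was chosen, so they are described instead. The line differences of MIR146B, and of MIR155, MIR222, MIR221, MIR34A and MIR125B1, which the paper lists, are described as well. Tables and figures were made in Python 3.11.15 with pandas 2.3.3, scipy 1.17.1 and matplotlib 3.10.9.

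Named genes were the pair, MIR3142, precursors with the same seed, the NF-kB-linked list (up to 4 per comparison with the largest change past the threshold, with MIR155 and MIR21), cell type markers, and the 5 precursors most alike to each member by Pearson correlation, copies of a mature miRNA counted once. Members and lists were chosen with earlier results of these data known. Libraries of a group differed by more than counting error (chi-square divided by its degrees of freedom, 2.51 to 32.1). Being set against counting error alone, this cannot show that they are separate cultures. Each was counted as a replicate because its label calls it one. The third DMSO library of A375-BIR stood apart, at 29.41 and 32.1 against the others of its group, which differed by 2.51. It was kept, and the values without it are given. Same-numbered DMSO libraries of the lines deviated together from their group means (correlations 0.11, 0.22 and 0.30), which by the rule of all over 0.1 pairs them, and no other groups did. The labels name no shared batch.

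Alternatives were another filter or none, DESeq2 1.42.0 size factors or total counts, its Wald test, only the libraries compared, a replicate block, removal of the MIR663 and MIR3648 rows (MIR3687, set with them, is no name in GENCODE v44), the pair summed, pseudocounts of 0 and 1, and each library left out. Chosen after seeing the data were removal of all rows matching the 45S pre-rRNA (RNA45SN2) and the use of these alternatives on the NF-kB-linked genes named as past the threshold. Isoforms, targets and the other experiments of the study were not analysed here.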

Additional observations from a re-analysis of the deposited data

Results flagged for a closer look

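The response of MIR146A to dabrafenib differed between the lines. The log2 fold change of dabrafenib over DMSO was -0.71 in A375 and 0.56 in A375-BIR, a difference of -1.27 (SE 0.29), while the corresponding difference of MIR146B was 0.04 (SE 0.39). The difference of MIR146A was known when the pair was chosen and is a description.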

How the results depend on the processing

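Of 170 values of the pair and of the counts of calls under other settings and 240 with a library left out, 150 and 223 were kept. A value of MIR146B was kept if its direction and side of the threshold held, whatever its size. Values of MIR146A and of the ratio, given without a test, were kept if their direction held and they moved by less than the spread between replicates. Counts of calls were kept if they moved by at most 1.5 times. Of 395 values of NF-kB-linked genes past the threshold, 27 lost the call. The line difference of the summed pair, another quantity than that of MIR146A alone, was 2.88 in DMSO, 1.42 in dabrafenib and 2.15 over both. With total counts, the line difference of MIR146A in dabrafenib was 2.70, its response in A375 -1.21 and its difference in response -1.72. Its response in A375 was -1.12 with the 1 CPM filter and -1.11 with no filter. The difference in response of MIR146B, near 0, changed sign: -0.132 with the 1 CPM filter, -0.096 with no filter, -0.089 with DESeq2's size factors and with its Wald test, -0.434 with total counts, -0.036 without the MIR663 and MIR3648 rows and -0.088 without all rows matching the 45S pre-rRNA, chosen after seeing the data. Without the MIR663 and MIR3648 rows the response of MIR146B in A375-BIR passed, at 0.675. Calls for dabrafenib in A375-BIR fell from 36 to 19 with only the libraries compared. Calls for the difference in response fell from 6 to 1 with total counts and to 2 without either set of rows. MIR663A, MIR3648-1 and MIR3648-2 were among the 6, so their removal makes up much of the fall to 2. Other causes were not tested.

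Leaving out a library gave -0.808 to -0.575 for MIR146A with dabrafenib in A375 and 0.393 to 0.757 in A375-BIR, 0.453 to 0.833 for MIR146B in A375-BIR, and -0.222 to 0.231 for its difference in response. The change of the log2 ratio with drug in A375-BIR lay between -0.348 and 0.124. Without the third DMSO replicate of A375-BIR, which stood apart, MIR146A in A375-BIR was 0.757 and MIR146B 0.689, past the threshold. Calls for dabrafenib in A375-BIR ranged from 20 to 46 (46 without that library), with 20 and 22 without the first and second DMSO replicates of A375-BIR and 22 without its second dabrafenib replicate. Calls for the difference in response ranged from 2 to 6, with 2 without the second dabrafenib replicate of A375-BIR and 3 without the first DMSO replicate or the first or second dabrafenib replicate of A375. With the replicate block no call of MIR146B changed, and MIR146A with dabrafenib in A375 was -0.724.

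The balance of calls moved with scaling. With DESeq2's size factors 38 were higher and 43 lower between the lines in DMSO (28 and 53 with TMM), 23 and 23 for dabrafenib in A375 (32 and 12) and 23 and 20 in A375-BIR (23 and 13). With total counts they were 24 and 58 between the lines in dabrafenib (42 and 39), 35 and 72 over both (45 and 60), 18 and 44 for dabrafenib in A375 and 0 and 1 for the difference in response (5 and 1). Total counts moved the median log2 fold change by -0.467, -0.233, -0.498 and -0.463 in these comparisons, and DESeq2's size factors by 0.162 between the lines in DMSO, 0.108 over both, -0.2 for dabrafenib in A375 and -0.121 for the difference. Of the pair, MIR146B in A375 had the fewest counts, down to 15.5 in 1 treated library.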
